A study of Mus musculus with 26 samples.

Results

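The semaphorins, plexins and neuropilins and the plexin domain containing genes Plxdc1 and Plxdc2 were followed across 13 neuron subtypes of the mouse retina. Members were matched by gene symbol, and the family was chosen with earlier results of these data known. Of the 18193 genes with a probe set 33 matched: 20 semaphorins of classes 3 to 7, 9 plexins, 2 neuropilins and 2 Plxdc genes. Neurons were sorted from retinas of postnatal day 6 mice by reporter fluorescence, and RNA of 2 replicates per subtype, from different litters, was hybridised to 26 single-colour arrays. The 6 ganglion cell subtypes were all sorted as Thy1-positive: BD (bistratified dendrites), J, W3 and W7 by YFP, Cdh3 by a GFP transgene on a bacterial artificial chromosome, and Isl2 by beta-galactosidase. The 5 amacrine subtypes were starburst (Kusabira Orange-positive, Thy1-negative), MP (CFP-positive, VC1.1-positive), AII and PaxCre (GFP-positive) and J (YFP-positive), PaxCre being labelled GABAergic and J glycinergic. The remaining subtypes were ON bipolar (GFP-positive) and MP bipolar (CFP-positive, VC1.1-negative). Most mice were labelled C57BL/6. MP cells came from a mixed C57BL/6 and CD1 background, AII cells from a Swiss Webster cross with C57BL/6, and the Cdh3 replicates from Swiss Webster crosses labelled C57BL/7 and C57BL/8, so that strain and subtype cannot be told apart for these 4 subtypes.

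Semaphorins are secreted or membrane-bound guidance proteins that steer axons and dendrites, in most cases by repulsion. Plexins are their transmembrane receptors and act on small GTPases inside the cell, while neuropilins are co-receptors that bind most secreted class 3 semaphorins and signal through A-type plexins. In the retina, semaphorins and plexins are known for keeping neurites of inner retinal neurons within the inner plexiform layer and within its sublayers, and for guiding ganglion cell axons.

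Levels are given as log2(intensity + 16) after quantile normalisation, a scale on which the floor of the deposited values lies at 4.09 and the median of all values at 6.14. Probe sets bind with different strength, so no level is set against that of another gene. Median intensity as deposited was 61.5 to 74.8 on the 12 ganglion arrays and 37.4 to 47.1 on the 14 other arrays, and this difference in scale and the ganglion class cannot be told apart. The labelled classes carried their markers: 7 of 7 tested ganglion markers were higher in ganglion than in amacrine cells, 5 of 5 amacrine markers were lower, 5 of 5 tested bipolar markers were higher in bipolar than in amacrine cells, and 5 of 5 starburst markers and 4 of 4 AII markers were higher in starburst and AII cells than in the other amacrine cells. MP amacrine cells departed from their class: 3 of 5 amacrine markers were lower than in the other amacrine cells, with a list mean of 8.65 against 10.44 to 11.51, and 4 of 5 rod and 2 of 5 bipolar markers were higher. PaxCre cells were higher than the other amacrine cells in 3 of 7 tested ganglion markers, where 4.97% of all genes were higher. Their list mean was 7.766, against 5.972 (AII) to 7.675 (J) in the other amacrine subtypes. ON bipolar cells were higher than MP bipolar cells in 3 of 4 AII markers and 2 of 5 bipolar markers. Markers of other cells also moved with the ganglion class. All 9 microglia markers were higher in ganglion than in amacrine cells, with a list mean of 7.41 to 10.19 in the ganglion subtypes and 5.55 to 7.16 in the others, and 3 of 5 tested vessel markers were higher, with a list mean up to 7.86 in J ganglion cells. Between replicates the SD of the microglia list mean was 2.43 in Cdh3 and 1.24 in W3 ganglion cells, against 0.061 to 0.81 in the other subtypes. Of 5 tested rod markers 4 were lower in ganglion than in amacrine cells and 4 were lower in starburst cells than in the other amacrine cells, with a list mean of 6.76 in starburst cells and up to 9.00 in MP amacrine cells. No microglia marker passed for starburst cells (9 tested), whose list mean was 5.77. The part of these cells in any difference below was not tested. In sorted RNA, fewer cells of a type and less RNA per cell cannot be told apart.

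A member passed a comparison at a limma adjusted p under 0.05 (Benjamini-Hochberg over 13951 genes) and a difference that reached 1 log2 unit, or 2-fold on this scale. Of the 33 members 32 were tested. Plxnd1, which encodes the plexin that binds Sema3E, lay below the median of all values on all 26 arrays, with subtype means of 4.46 to 5.70, and was not tested. Among tested members the median range of the 13 subtype means was 1.97 log2 units, against 1.58 over all tested genes, while the median SD between replicates was 0.31 against 0.27.

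By their brightest probe sets, the members that differed most between classes were Sema6a, Sema3e and Nrp1, high in ganglion cells, and Plxna2, high in amacrine cells. Second probe sets gave -2.54 for Sema6a and -4.02 for Plxna4 in ganglion against amacrine cells, as described with the probe sets. Between ganglion and amacrine cells 10 of 32 members passed, 6 higher and 4 lower in ganglion cells, where 24.8% of all genes passed (15.8% higher and 9.00% lower). Bipolar against amacrine cells gave 6 of 32 members, 1 higher (Sema3e) and 5 lower (Plxna2, Plxna1, Sema3a, Sema5a and Nrp1), where 10.4% of all genes passed (4.67% higher and 5.70% lower). Bipolar against ganglion cells gave 14 of 32 members, 3 higher and 11 lower, where 29.6% of all genes passed (11.2% higher and 18.5% lower). Among these were Sema3e (-2.37), Sema6b (-2.09), Nrp2 (-1.39, or -0.89 with the second probe set) and Plxna2 (1.18, or 0.64 with the columns as deposited). The second probe set of Plxna2 passed in the opposite direction (-1.02). With subtype means as units its brightest probe set did not pass (limma adjusted p = 0.275). Calls of members were thus at 31.2%, 18.8% and 43.8%. With the columns as deposited, the share of called genes that was higher in ganglion than in amacrine cells was 84.2%, against 63.7% after quantile normalisation.

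Members also differed within classes. Of 32 members, 18 passed a moderated F test among the 5 amacrine subtypes with a range of at least 1, where 40.2% of all genes did, and 7 passed among the 6 ganglion subtypes, where 5.94% did. Without BD ganglion replicate 1 the count among ganglion subtypes was 13. Each subtype was set against the others of its class, which gave 41 passed results in 352, against 5.19% over all genes. Starburst cells differed from the other amacrine cells in 10 of 32 members, 6 higher and 4 lower (10.9% of all genes, 5.32% higher and 5.61% lower), MP cells in 7 (10.4%), AII cells in 6 (16.2%), J cells in 5 (6.06%) and PaxCre cells in 4 (6.54%). ON and MP bipolar cells differed in 5 members, 2 higher in ON cells and 3 lower (5.03% of all genes, 2.59% higher and 2.44% lower). Among ganglion cells, Cdh3 cells differed from the rest in 4 members (2.09%), W3 in 2 (0.803%), W7 in 2 (1.37%) and BD in 1 (0.495%). In limma no member passed for Isl2 cells (0.222% of all genes) or J ganglion cells (2.04%), where 2 and 10 members had an unadjusted p under 0.05.

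**Figure D1:**
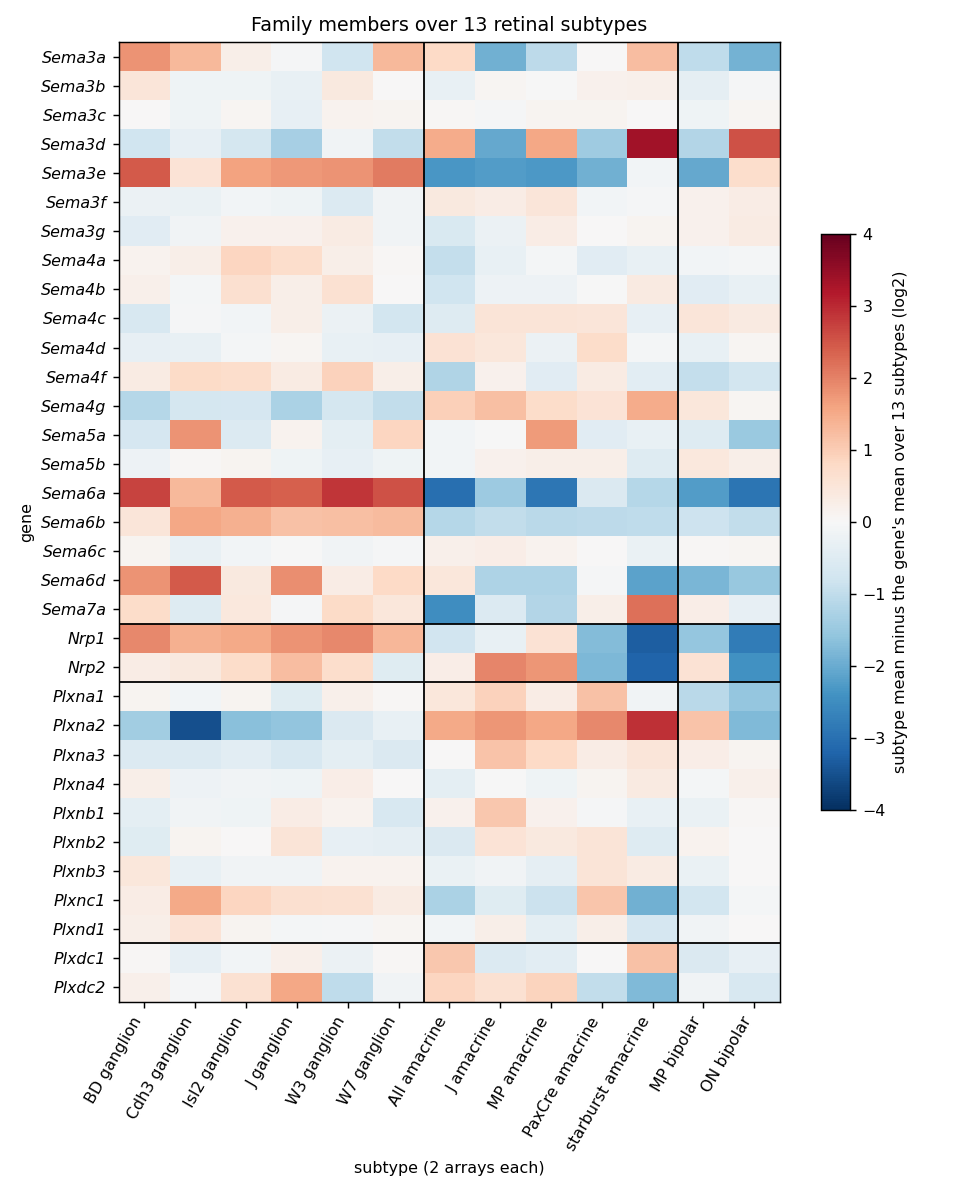
Each of the 33 members (rows) in each of 13 subtypes (columns, 2 arrays each), coloured by the subtype mean minus the gene's mean over the 13 subtypes, in log2 units; horizontal lines part semaphorins, neuropilins, plexins and Plxdc genes, and vertical lines part ganglion, amacrine and bipolar subtypes. Sema3e, Sema6a and Nrp1 are red over all ganglion columns except that Sema3e is pale in Cdh3 cells, and Plxna2 is red in the amacrine columns and MP bipolar cells only; in starburst cells Sema3d, Sema7a and Plxna2 are red and Nrp1 and Nrp2 dark blue.

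Class 3 semaphorins, the secreted ligands, included 4 genes on chromosome 5, all on the forward strand of GRCm38.p6 and in the order Sema3d (chr5:12383161-12588953), Sema3a (chr5:13124822-13603485), Sema3e (chr5:14025276-14256689) and Sema3c (chr5:17574816-17730268). Between Sema3d and Sema3a lay 536 kb with 0 protein-coding genes, between Sema3a and Sema3e 422 kb with 3, and between Sema3e and Sema3c 3318 kb with 15. Sema3d, Sema3a and Sema3e were higher in starburst cells than in the other amacrine cells and Sema3c was not, so the start regions of all 4 are shown, from 250 bases before to 50 after the start listed by RefSeq on GRCm38.p6. They lie at chr5:12382916-12383215, chr5:13396534-13396833 (a start inside the span of Sema3a), chr5:14025026-14025325 and chr5:17574566-17574865, forward strand, with each CANNTG (an E-box, read the same on both strands) in capitals.
Sema3d: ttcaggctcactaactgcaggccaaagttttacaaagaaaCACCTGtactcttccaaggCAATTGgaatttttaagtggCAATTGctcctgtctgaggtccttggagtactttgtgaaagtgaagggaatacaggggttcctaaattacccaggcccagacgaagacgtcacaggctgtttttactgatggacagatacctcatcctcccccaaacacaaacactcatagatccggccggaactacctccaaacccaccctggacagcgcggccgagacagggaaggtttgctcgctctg
Sema3a: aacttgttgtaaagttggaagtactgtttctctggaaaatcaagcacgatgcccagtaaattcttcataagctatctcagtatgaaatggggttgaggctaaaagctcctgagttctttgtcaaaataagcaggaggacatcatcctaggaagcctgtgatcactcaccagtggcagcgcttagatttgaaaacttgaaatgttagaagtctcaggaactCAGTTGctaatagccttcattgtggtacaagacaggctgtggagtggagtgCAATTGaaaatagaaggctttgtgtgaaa
Sema3e: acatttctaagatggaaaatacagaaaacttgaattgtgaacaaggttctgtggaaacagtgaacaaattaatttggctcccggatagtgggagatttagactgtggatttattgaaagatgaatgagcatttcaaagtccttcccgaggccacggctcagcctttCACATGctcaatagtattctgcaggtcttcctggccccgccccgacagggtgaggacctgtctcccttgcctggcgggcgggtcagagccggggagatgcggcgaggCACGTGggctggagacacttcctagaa
Sema3c: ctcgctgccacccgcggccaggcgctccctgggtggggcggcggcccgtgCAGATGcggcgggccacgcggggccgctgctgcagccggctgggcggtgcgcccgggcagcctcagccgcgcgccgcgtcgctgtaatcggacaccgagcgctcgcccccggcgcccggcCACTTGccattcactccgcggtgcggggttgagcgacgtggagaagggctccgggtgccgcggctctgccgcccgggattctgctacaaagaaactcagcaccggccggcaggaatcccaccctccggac

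The windows of Sema3d, Sema3a and Sema3e held 8, 2 and 11 CpG dinucleotides at a GC content of 49.7%, 41.3% and 50.7%, and that of Sema3c 42 CpG at 75.7%. Over the 26 of 33 members with a window in the table, the median was 23 CpG and 65.0% GC, against 7 CpG and 52.7% GC over 32851 promoters. CANNTG occurred 3 times before Sema3d and 2 times in each of the others. It was present for 14 of the 26 members and in 72.3% of all promoters, so its presence sets none of these genes apart.

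Sema3d varied more among amacrine subtypes than any other tested member, by 5.41 log2 units (F test adjusted p = 1.41e-10). Its arrays read 10.16 and 9.92 in starburst cells, 9.18 and 9.28 in ON bipolar cells, 8.51 and 7.94 in MP amacrine cells and 7.79 and 8.53 in AII cells. The arrays of the other 9 subtypes lay between 4.44 (J amacrine) and 6.63 (W3 ganglion). The gene was thus well above the median of all values in 4 subtypes of 2 classes, and MP amacrine and AII cells, which follow each other in the order, overlapped. Starburst cells exceeded the other amacrine cells by 3.48 ± 0.22 (SE; 11.1-fold, limma adjusted p = 1.25e-09) and ON exceeded MP bipolar cells by 3.74 ± 0.28 (13.4-fold, adjusted p = 4.79e-08), with no overlap of arrays in either case. AII markers, whose list mean was 9.24 in ON and 6.97 in MP bipolar cells, moved with the second difference, and their part in it was not tested. J (-3.29 ± 0.22) and PaxCre cells (-2.52 ± 0.22) were lower than the other amacrine cells, while AII (1.12) and MP cells (1.21) were higher. Without AII replicate 2 the AII difference was 0.75, with an adjusted p of 0.0651, and without MP amacrine replicate 1 the MP difference was 0.93. Ganglion cells were lower than amacrine cells (-1.29 ± 0.12), but the difference was -0.83 with the columns as deposited, -0.75 in C57BL/6 subtypes and 0.71 within the J line, where J amacrine cells had the lowest mean of all subtypes. Bipolar cells were higher than ganglion cells by 1.40 ± 0.16 (0.91 with the columns as deposited), which rests on ON cells: the MP bipolar mean of 5.49 lay within the range of the ganglion arrays, 5.22 to 6.63, and with subtype means as units the adjusted p was 0.406.

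Sema3e ran high in ganglion cells and in 2 other subtypes. Its ganglion arrays ranged from 8.91 to 11.06 with a median of 10.10, and the amacrine arrays from 5.69 to 8.37 with a median of 6.33. The bipolar arrays read 9.46 and 8.70 in ON and 6.08 and 6.61 in MP cells. Every ganglion array lay above every amacrine array, and the difference was 3.48 ± 0.14 (11.1-fold, limma adjusted p = 1.14e-13). Within the amacrine class the arrays above 6.56 were the starburst pair at 8.18 and 8.37, higher than the other amacrine cells by 2.08 ± 0.25 (adjusted p = 5.73e-06). ON bipolar cells exceeded MP bipolar cells by 2.73 ± 0.32 (adjusted p = 1.16e-05), so that bipolar cells as a class were higher than amacrine cells by 1.11, a call lost without MP bipolar replicate 2 or ON bipolar replicate 1 (lowest 0.92). Among ganglion cells, Cdh3 cells had the lowest arrays, 8.91 and 8.93, and differed from the rest by -1.39 ± 0.25. That call ended without Cdh3 replicate 2, at an adjusted p of 0.0543, and the F test among ganglion subtypes (range 1.90, adjusted p = 0.0121) ended without either Cdh3 replicate (adjusted p up to 0.0758). The other tested probe sets of Sema3e gave a ganglion minus amacrine difference of 4.09 and 3.67.

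Sema3a, which repels axons through neuropilin-1 and A-type plexins, had high and low subtypes in both large classes. Among ganglion cells its arrays read 9.96 and 10.43 in BD, 9.38 and 10.02 in W7, 9.59 and 9.80 in Cdh3, 8.82 and 8.44 in Isl2, 8.66 and 8.05 in J and 7.58 and 7.63 in W3. Among amacrine cells they read 9.66 and 9.62 in starburst, 9.26 and 9.12 in AII, 8.12 and 8.69 in PaxCre, 7.49 and 7.22 in MP and 7.16 and 5.76 in J. Bipolar arrays lay at 7.30 and 7.43 in MP and 6.15 and 6.86 in ON cells. The W3 pair lay below all other ganglion arrays and the starburst pair above all other amacrine arrays. Starburst (1.79 ± 0.29) and AII cells (1.23 ± 0.29) were higher than the other amacrine cells and J (-2.19 ± 0.29) and MP cells (-1.07 ± 0.29) lower. W3 cells differed from other ganglion cells by -1.71 ± 0.28 (limma adjusted p = 0.00327) and BD cells by 1.39 ± 0.28 (adjusted p = 0.0246). These ganglion calls each rest on few arrays: the first ended without either W3 replicate (adjusted p up to 0.0983) and the second without BD replicate 2 (adjusted p = 0.969). The MP amacrine call ended without MP replicate 2, J amacrine replicate 1 or PaxCre replicate 2 (lowest size -0.90). Bipolar cells were lower than amacrine (-1.28) and ganglion cells (-2.10), with no overlap against ganglion arrays, and within the MP line the bipolar minus amacrine difference was 0.0078.

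The remaining class 3 members varied little. Over the 13 subtypes, the means of Sema3c spanned 0.47 log2 units, those of Sema3b 0.85, those of Sema3g 0.95 and those of Sema3f, the ligand of neuropilin-2, 1.03. None of these 4 passed any class or subtype comparison with its brightest probe set.

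**Figure D2:**
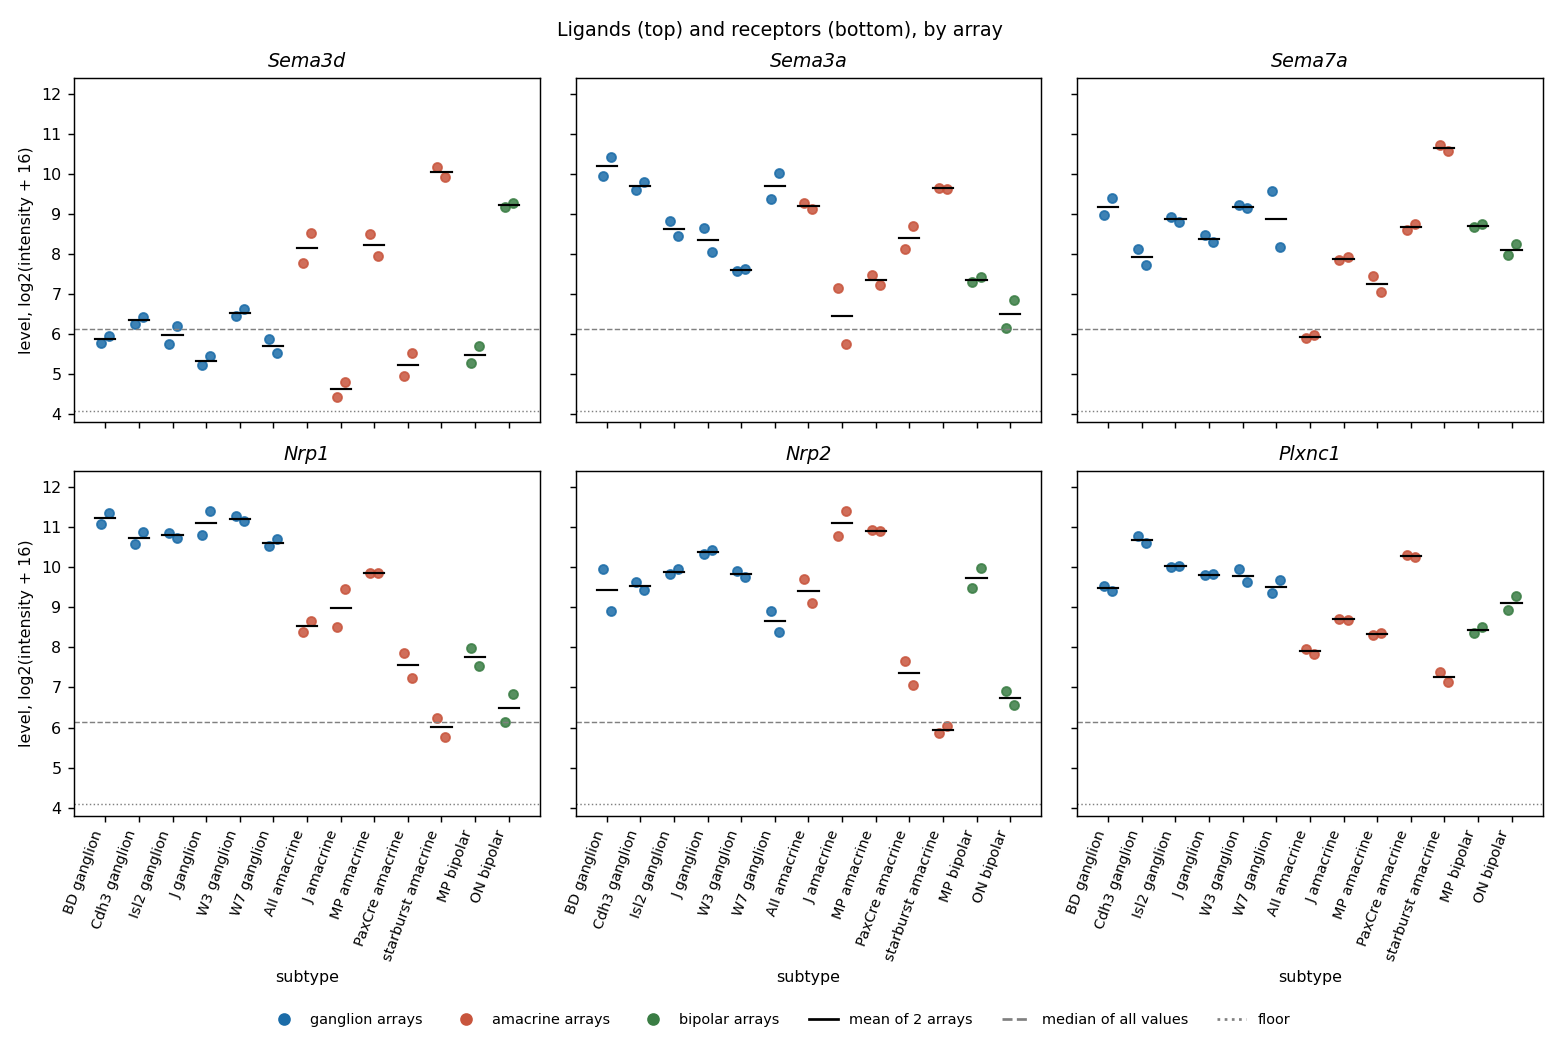
Levels of 3 ligands (Sema3d, Sema3a and Sema7a, top) and 3 receptors (Nrp1, Nrp2 and Plxnc1, bottom) in log2(intensity + 16) for each of 26 arrays, by subtype; bars are means of 2 arrays, the dashed line is the median of all values (6.14) and the dotted line the floor (4.09). On these brightest probe sets, Sema3d (9.92 and 10.16) and Sema7a (10.57 and 10.72) have their highest mean in starburst cells, and Nrp1, Nrp2 and Plxnc1 their lowest.

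Class 4 semaphorins are membrane proteins that act mainly through B-type plexins. Sema4g differed between classes: its ganglion arrays ranged from 7.66 to 8.71 (median 8.57), its amacrine arrays from 9.81 to 10.80 (median 10.21) and its bipolar arrays from 9.30 to 9.88. All ganglion arrays lay below all others, with -1.90 ± 0.11 against amacrine cells (limma adjusted p = 1.8e-11), and bipolar cells were higher than ganglion cells by 1.19 ± 0.15. With the columns as deposited that bipolar difference was 0.63. Sema4f was lower in bipolar than in ganglion cells (-1.39 ± 0.20), a call that ended with the second probe set (-0.17) and the median over probe sets (-0.78). It was also lower in AII than in other amacrine cells (-1.10 ± 0.28), a call that ended without AII replicate 2 (-0.71). Sema4c passed the F test among amacrine subtypes with a range of 1.03, which ended without starburst replicate 2 or either AII replicate. Sema4a (0.79 ± 0.11), Sema4b (0.45) and Sema4d (-0.50 ± 0.10) did not reach 1 log2 unit between ganglion and amacrine cells.

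Class 5 semaphorins, membrane proteins with thrombospondin repeats, bind Plxna1 and Plxna3 and restrict neurites of the inner retina. Sema5a had its highest arrays in Cdh3 ganglion cells (7.79 and 8.29) and MP amacrine cells (8.22 and 7.65), followed by W7 cells (6.73 and 7.44). All other arrays lay between 4.39 (ON bipolar) and 6.58 (J ganglion). Cdh3 cells exceeded other ganglion cells by 1.92 ± 0.30 (limma adjusted p = 0.000553) and MP cells exceeded other amacrine cells by 1.92 ± 0.30 (adjusted p = 0.000175), without overlap. Neither subtype was on C57BL/6 alone, and among C57BL/6 subtypes the F tests did not pass (ganglion range 1.53, adjusted p = 0.137; amacrine range 0.43, adjusted p = 0.737). The Cdh3 call ended with the second probe set (1.32, adjusted p = 0.0743) and when its probe sets were reduced to their median (0.49, adjusted p = 0.201). Bipolar cells were lower than amacrine (-1.16) and ganglion cells (-1.19), and without ON bipolar replicate 1 the first difference was -0.98. The brightest probe set of Sema5b stayed between 5.24 and 6.16 in its subtype means and passed nothing.

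Class 6 semaphorins are transmembrane ligands of A-type plexins. Sema6a showed the largest class difference of all members. Its ganglion arrays ranged from 10.05 to 11.67 with a median of 11.40, its amacrine arrays from 5.64 to 8.32 with a median of 7.04, and its bipolar arrays read 6.68 and 6.41 in MP and 5.55 and 6.13 in ON cells. Ganglion and other arrays did not overlap, and the difference from amacrine cells was 4.19 ± 0.13 (18.3-fold, limma adjusted p = 3.99e-15). From bipolar to ganglion cells it was -4.95 ± 0.17. Among amacrine cells the arrays of PaxCre (8.32 and 8.05), starburst (7.31 and 7.91) and J cells (7.88 and 6.76) lay above those of AII (5.84 and 5.64) and MP cells (5.81 and 5.94). PaxCre cells were higher than the rest by 1.55 ± 0.24 and AII (-1.51) and MP cells (-1.34) lower. AII and MP cells, the low subtypes, were not on C57BL/6 alone. In C57BL/6 subtypes the F test among amacrine cells did not pass (range 0.86, adjusted p = 0.205). The PaxCre difference there was 0.72 (limma adjusted p = 0.208). The part of the ganglion markers that were higher in PaxCre cells was not tested. Cdh3 cells had the lowest ganglion arrays, 10.09 and 10.05, a difference of -1.29 ± 0.23 that lost its call without Cdh3 replicate 2 (adjusted p = 0.0684). A second probe set of Sema6a ran the opposite way between classes, as described with the probe sets.

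Sema6b was 2.23 ± 0.24 higher in ganglion than in amacrine cells (4.71-fold, limma adjusted p = 1.54e-07). Its ganglion arrays lay between 6.47 and 7.48 except BD replicate 2 at 4.58, and its amacrine and bipolar arrays lay between 4.14 and 4.98, near the floor. The 2 BD arrays (7.48 and 4.58) therefore fell on either side of the gap. Sema6d was higher in ganglion cells by 2.09 ± 0.41 (adjusted p = 0.000208), with ganglion arrays from 8.56 to 11.06 (median 9.63) and amacrine arrays from 4.91 to 9.40 (median 8.21). Its replicates disagreed in J amacrine (9.40 and 4.91) and MP amacrine cells (8.65 and 5.64), while AII (8.84 and 8.87) and starburst pairs (6.27 and 6.24) agreed closely. Sema6d did not pass the F test among amacrine (range 2.60, adjusted p = 0.142) or ganglion subtypes (2.15, adjusted p = 0.477). Its bipolar arrays, 6.45 to 7.25, lay below all ganglion arrays (-2.94 ± 0.56). Sema6c had subtype means within 0.58 log2 units and passed nothing.

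Sema7a, the member anchored to the membrane by a glycolipid, marked starburst cells within the amacrine class. Its arrays read 10.72 and 10.57 in starburst, 8.61 and 8.74 in PaxCre, 7.84 and 7.92 in J, 7.45 and 7.05 in MP and 5.90 and 5.98 in AII cells. The 5 amacrine pairs did not overlap, and their means spanned 4.71 log2 units (F test adjusted p = 1.21e-08). Starburst cells exceeded the others by 3.21 ± 0.24 (9.24-fold, limma adjusted p = 1.27e-08) and AII cells were lower than the others (-2.68 ± 0.24, adjusted p = 1.85e-07), where the second probe set gave -0.59 (adjusted p = 0.0752). The starburst mean was 1.46 above the next subtype of any class, W3 ganglion cells. Ganglion arrays lay between 7.72 and 9.57 and bipolar arrays between 7.96 and 8.74. The W7 replicates read 9.57 and 8.17. MP amacrine cells were lower than the rest (-1.03 ± 0.24), a call that ended without MP replicate 2 (adjusted p = 0.105).

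**Figure D3:**
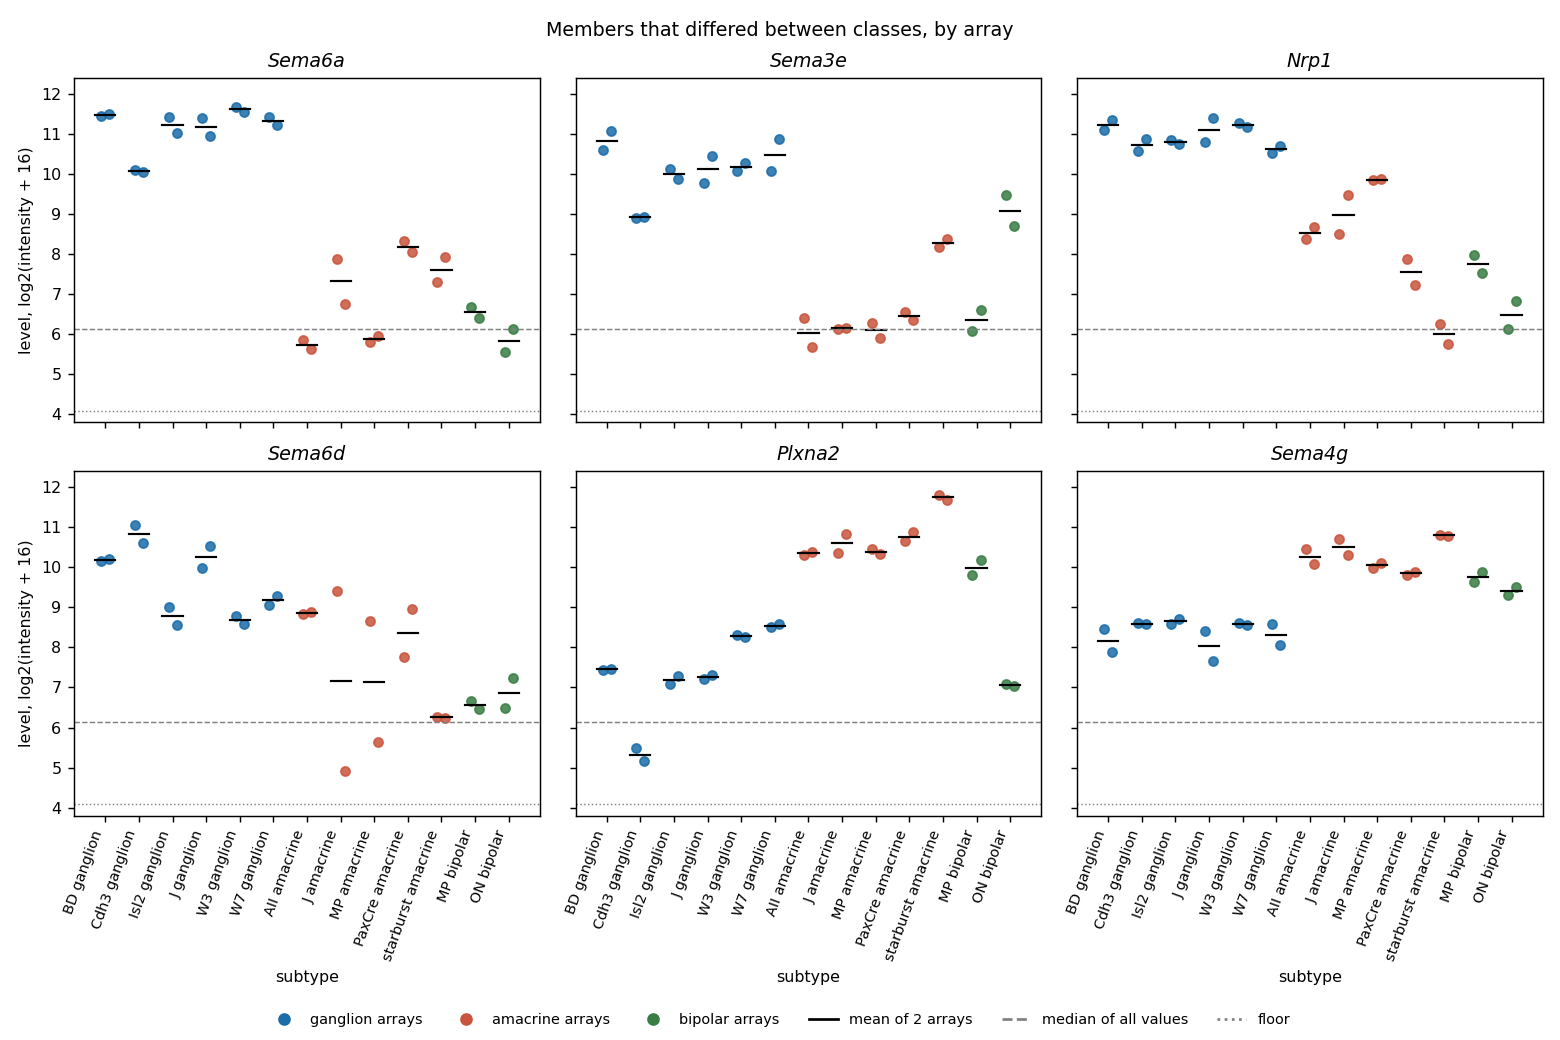
Levels of 6 members that passed between ganglion and amacrine cells, in log2(intensity + 16) for each of 26 arrays, by subtype; bars are means of 2 arrays, the dashed line is the median of all values (6.14) and the dotted line the floor (4.09). On these brightest probe sets, Sema6a, Sema3e and Nrp1 have all 12 ganglion arrays above all 10 amacrine arrays and Plxna2 and Sema4g have them below. Sema6d overlaps, with J amacrine arrays at 9.40 and 4.91.

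By their brightest probe sets, both neuropilins had their lowest subtype mean in starburst cells. Nrp1 read between 10.52 and 11.39 on the ganglion arrays (median 10.86). Amacrine arrays read 9.85 and 9.86 in MP, 8.50 and 9.47 in J, 8.39 and 8.67 in AII, 7.87 and 7.24 in PaxCre and 6.25 and 5.76 in starburst cells. Bipolar arrays read 7.98 and 7.53 in MP and 6.14 and 6.84 in ON cells. No ganglion array overlapped with any other, and the 6 ganglion subtypes did not differ by the F test (range 0.61, adjusted p = 0.556). Ganglion cells exceeded amacrine cells by 2.76 ± 0.13 (6.77-fold, limma adjusted p = 2.18e-12), MP amacrine cells exceeded the other amacrine cells by 2.09 ± 0.25 and starburst cells differed by -2.73 ± 0.25 (adjusted p = 1.72e-07). The MP amacrine call ended with the second probe set (0.82) and with the median over probe sets (0.94), and the part of the marker shifts of MP amacrine cells in it was not tested. Bipolar cells were lower than ganglion (-3.82 ± 0.18) and amacrine cells (-1.06). The latter call ended without MP bipolar replicate 2, J amacrine replicate 2 or ON bipolar replicate 1 (lowest size -0.89). ON bipolar cells were lower than MP bipolar cells (-1.27 ± 0.31, adjusted p = 0.0173), a call that ended without MP replicate 1 or ON replicate 1 (adjusted p up to 0.243). That call also ended with the second probe set (-0.99) and with the median over probe sets (-0.72). On the third brightest Nrp1 probe set bipolar arrays reached down to 4.62, below the lowest amacrine array at 5.48.

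Nrp2 had a different order. Its arrays read 10.78 and 11.41 in J amacrine, 10.93 and 10.90 in MP amacrine, 9.71 and 9.11 in AII, 7.65 and 7.06 in PaxCre and 5.85 and 6.05 in starburst cells, a spread of means of 5.15 log2 units (F test adjusted p = 9.3e-10). Ganglion arrays lay between 8.39 and 10.43, highest in the J pair (10.32 and 10.43) and lowest in W7 (8.91 and 8.39). Bipolar arrays read 9.49 and 9.99 in MP and 6.91 and 6.55 in ON cells. J (2.69 ± 0.25) and MP amacrine cells (2.46 ± 0.25) were thus higher than the other amacrine cells, and starburst (-3.74 ± 0.25, limma adjusted p = 3.07e-09) and PaxCre cells (-1.98 ± 0.25) lower. ON differed from MP bipolar cells by -3.01 ± 0.32 (adjusted p = 3.73e-06). The W7 difference of -1.16 ended without W7 replicate 2 (adjusted p = 0.443), and the F test among ganglion subtypes (range 1.72) ended in 5 of 26 settings that each left out 1 array (Isl2 replicate 2 and each J and W7 ganglion replicate, adjusted p up to 0.182). The ganglion minus amacrine difference of 0.68 ± 0.14 did not reach 1 log2 unit, and the other Nrp2 probe sets gave -0.0054, -0.66 and -1.12, of which the last passed in the opposite direction. On that last probe set the starburst arrays read 5.71 and 5.66. They lay inside the pairs of PaxCre (5.76 and 5.61), Cdh3 ganglion (5.86 and 5.29) and ON bipolar cells (5.21 and 6.02).

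Among A-type plexins, Plxna2, the receptor of Sema6a, separated amacrine from ganglion cells by its brightest probe set. Its amacrine arrays ranged from 10.31 to 11.81 with a median of 10.55, highest in the starburst pair (11.81 and 11.68), and its ganglion arrays from 5.17 to 8.58 with a median of 7.37. The bipolar arrays read 9.80 and 10.17 in MP and 7.08 and 7.04 in ON cells. Every ganglion and bipolar array lay below every amacrine array, with -3.43 ± 0.08 for ganglion (10.8-fold lower, limma adjusted p = 9.61e-17) and -2.25 ± 0.11 for bipolar cells, though within the MP line the bipolar minus amacrine difference was -0.40. ON bipolar cells were 7.61-fold lower than MP bipolar cells (-2.93 ± 0.18, adjusted p = 6.72e-09). Starburst cells exceeded the other amacrine cells by 1.23 ± 0.15. Bipolar cells were higher than ganglion cells by 1.18, which rests on MP cells: the ON arrays lay within the range of the ganglion arrays. On the other Plxna2 probe sets ganglion and amacrine arrays overlapped. On the third brightest they ranged from 4.95 to 9.09 and from 6.72 to 11.13.

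Plxna2 also varied most among ganglion subtypes, by 3.21 log2 units (F test adjusted p = 8.15e-08). The ganglion arrays read 8.50 and 8.58 in W7, 8.30 and 8.25 in W3, 7.45 and 7.46 in BD, 7.20 and 7.30 in J, 7.07 and 7.28 in Isl2 and 5.48 and 5.17 in Cdh3 cells. The arrays of J and Isl2 cells overlapped, and those of the other neighbours in this order did not. W7 (1.44 ± 0.14) and W3 cells (1.13 ± 0.14) were higher than the other ganglion cells and Cdh3 cells lower (-2.41 ± 0.14, limma adjusted p = 7.23e-09). In C57BL/6 subtypes alone, without Cdh3, the W3 difference was 0.67 (adjusted p = 0.0582).

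Plxna1 and Plxna3, receptors of class 5 semaphorins, were less variable. Plxna1 was lower in bipolar cells, with subtype means of 7.39 ± 0.14 (SD, n = 2) in MP and 6.91 ± 0.12 in ON cells, than in amacrine cells, where means ran from 8.33 to 9.63 (-1.85 ± 0.15 SE, limma adjusted p = 2.66e-08, no overlap). It was also lower in bipolar than in ganglion cells (-1.29). The second probe set of Plxna1 gave -0.029 and -0.81 in these comparisons, and neither passed. Plxna3 was lower in ganglion cells (means of 7.87 to 8.10) than in amacrine cells (8.54 to 9.66; -1.08 ± 0.09, no overlap), and that difference was -0.56 with the columns as deposited and -0.02 with the second probe set. The means of Plxna4 with its brightest probe set stayed between 6.81 and 7.57.

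Among B-type plexins, Plxnb1, a receptor of Sema4d, was higher in J amacrine than in the other amacrine cells by 1.09 ± 0.23 (limma adjusted p = 0.00369), a call that ended with array weights (adjusted p = 0.0861). Plxnb2, the receptor of Sema4c and Sema4g, passed the F test among amacrine subtypes with a range of 1.14, highest in J and lowest in AII cells. Plxnb3 passed nothing, with a range of 0.86 over 13 subtypes.

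Plxnc1, the plexin that binds Sema7a, was higher in ganglion than in amacrine cells by 1.39 ± 0.07 (limma adjusted p = 6.75e-12). Its ganglion arrays ranged from 9.35 to 10.78 with a median of 9.81, highest in the Cdh3 pair (10.78 and 10.60). Amacrine arrays read 10.31 and 10.26 in PaxCre, 8.71 and 8.69 in J, 8.31 and 8.35 in MP, 7.95 and 7.85 in AII and 7.38 and 7.14 in starburst cells. The 5 amacrine pairs did not overlap, and only the PaxCre pair reached the ganglion range. Of 7 tested ganglion markers 3 were also higher in PaxCre than in the other amacrine cells, and their part was not tested. PaxCre cells exceeded the other amacrine cells by 2.24 ± 0.14 (adjusted p = 2.95e-09) and starburst cells differed by -1.54 ± 0.14 (adjusted p = 1.1e-07). Bipolar cells, at 8.35 and 8.51 in MP and 8.94 and 9.27 in ON cells, lay below all ganglion arrays (-1.11 ± 0.10). The starburst call rests on the brightest probe set: the second gave -0.042 (adjusted p = 0.934) and the median over probe sets -0.26 (adjusted p = 0.284). For PaxCre cells the second gave 1.12, which passed, and the median 0.31. The second probe set of Plxnc1 gave 0.20 for ganglion against amacrine cells, and in C57BL/6 subtypes the brightest gave 0.98.

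Plxdc1 and Plxdc2 share a domain with plexins and are not semaphorin receptors of the plexin family. Plxdc1 was higher in starburst (1.16 ± 0.22) and AII cells (1.02 ± 0.22) and lower in J cells (-1.01 ± 0.22) than in the other amacrine cells. These differences were close to the limit, and each was lost when single arrays were left out: the starburst call without starburst replicate 2 (0.74, adjusted p = 0.0726), the AII call without starburst replicate 1, MP replicate 2, AII replicate 2, J replicate 2 or PaxCre replicate 1 (lowest 0.80), and the J call without starburst replicate 2, MP replicate 1, AII replicate 2, J replicate 2 or PaxCre replicate 2 (lowest size -0.86). Plxdc2 read 6.06 and 6.89 in starburst cells, 7.11 and 7.44 in PaxCre, 9.11 and 9.06 in AII, 8.74 and 9.51 in MP and 8.13 and 9.57 in J cells. The starburst pair lay below the other amacrine arrays (-2.11 ± 0.58, limma adjusted p = 0.0117), a call that ended without starburst replicate 1 (-1.70, adjusted p = 0.143). Replicates of Plxdc2 differed widely in Cdh3 cells (9.60 and 6.80). The microglia list mean also differed between the Cdh3 replicates (SD 2.43), and its part was not tested.

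Ligands and receptors known to bind each other were set side by side over the 13 subtypes, for 24 pairs. Correlations here describe 13 subtype means that share arrays, gates and normalisation. The median of all values was the same cut for every gene, while probe sets bind with different strength. Counts of subtypes above it therefore do not show whether a gene was present or absent, nor rank genes against each other. Sema3d and Nrp1 had r = -0.55: Sema3d was above the median of all values in 6 subtypes and Nrp1 in 11, and 4 had both (AII and MP amacrine, Cdh3 and W3 ganglion cells). In starburst cells, where Sema3d was highest, Nrp1 ranked 13 of 13 by the mean of its brightest probe set. Sema7a and Plxnc1 had r = 0.05, and starburst cells, highest in the ligand, again ranked 13 of 13 in the receptor, by its brightest probe set. Sema6a and Plxna2 had r = -0.57 over all subtypes and 0.61 over the 5 amacrine subtypes, but with the second probe set of Sema6a, an alternative added after the data had been seen, r was 0.76 and 0.30, so the sign of this pair over all subtypes turned with the probe set. Sema4c and Plxnb2 had the highest correlation of the 24 pairs (r = 0.88), with both at their highest mean in J amacrine cells, though their means spanned 1.25 and 1.14 log2 units only. Sema3a and Nrp1 (r = 0.28) were both above the median in 10 subtypes. Sema3f and Nrp2 were both above it in 12 subtypes, all but starburst cells. Plxnd1 was above it in no subtype, while its ligands Sema3e and Sema4a were above it in 9 and 13.

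**Figure D4:**
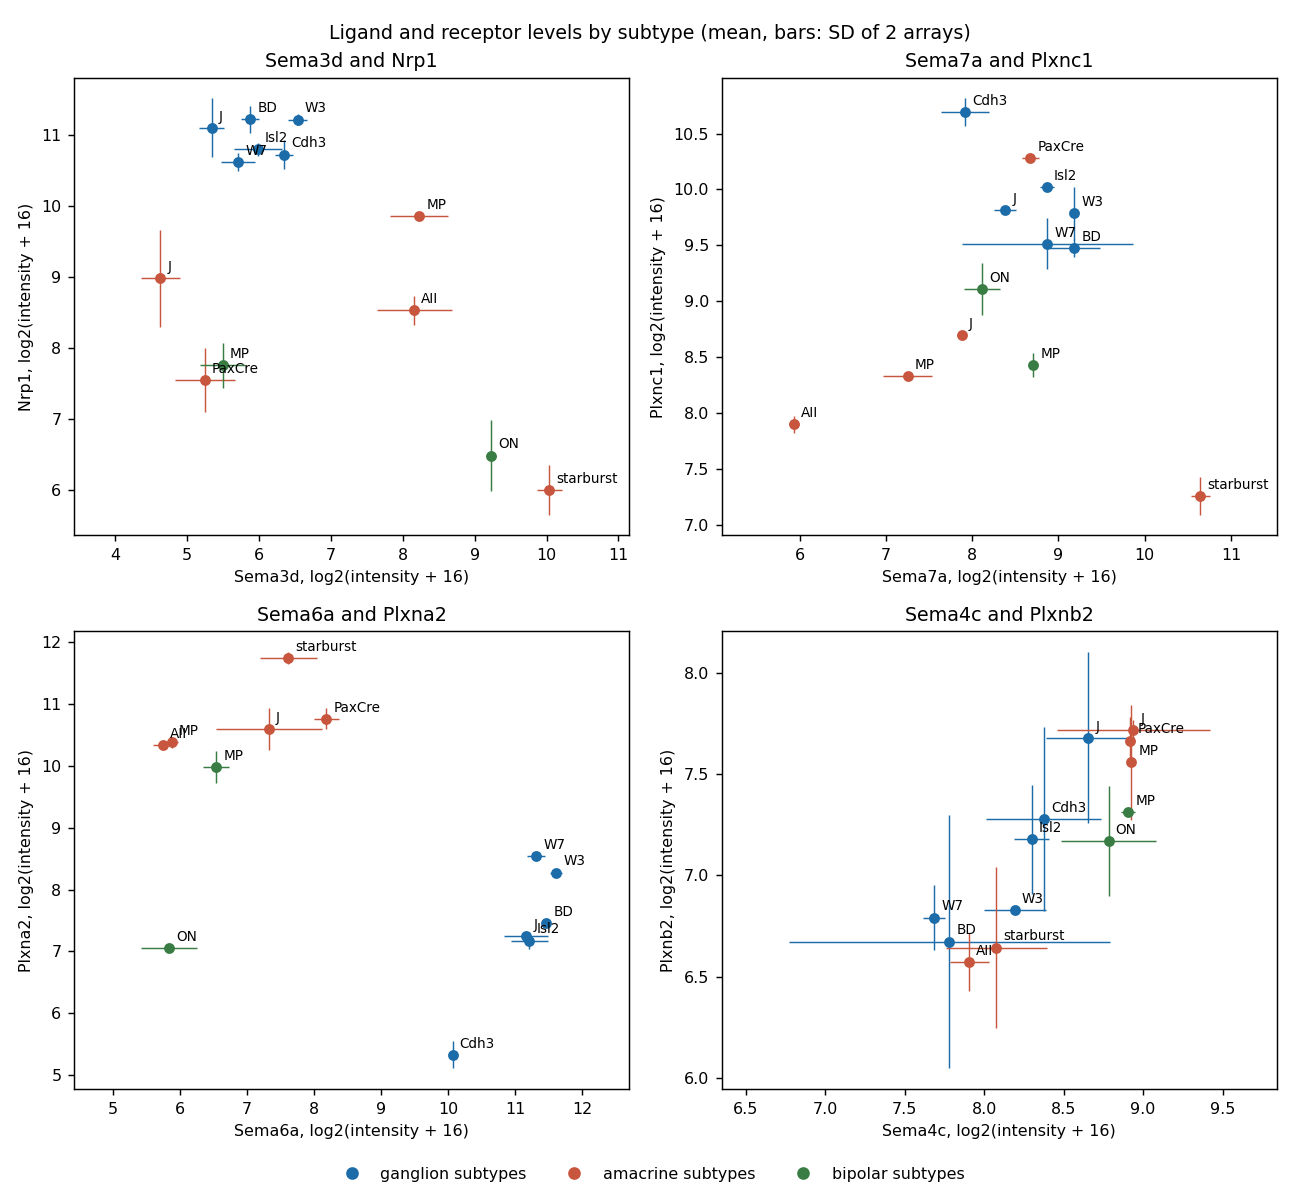
Subtype means of 4 ligands (horizontal axes) and their receptors (vertical axes), in log2(intensity + 16), for 13 subtypes coloured by class; bars are the SD of 2 arrays, and the axes differ between panels. Starburst cells sit at the right and the bottom for Sema3d with Nrp1 and Sema7a with Plxnc1, ganglion cells at the lower right for Sema6a (brightest probe set; r turns from -0.57 to 0.76 with the second) with Plxna2, and Sema4c and Plxnb2 rise together (r = 0.88).

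Differences in starburst and ON bipolar cells can be set side by side. Starburst cells were higher than the other amacrine cells in Sema3d, Sema7a, Sema3e, Sema3a, Plxna2 and Plxdc1 and lower in Nrp2, Nrp1, Plxdc2 and Plxnc1. ON bipolar cells were higher than MP bipolar cells in Sema3d and Sema3e and lower in Nrp2, Plxna2 and Nrp1, and arrays overlapped for none of these 5. Starburst cells were set against the other amacrine subtypes, but ON bipolar cells against MP bipolar cells only. The ligands Sema3d and Sema3e and both neuropilins took the same direction in both comparisons, and Plxna2 took opposite directions. MP bipolar cells came from a mixed background, so strain and subtype cannot be told apart in the bipolar comparison. There the Nrp1 call was lost without MP bipolar replicate 1 or ON bipolar replicate 1 (smallest size -0.92). It was also lost with the second probe set (-0.99) and with the median over probe sets (-0.72). The Sema3d call was lost with the second probe set (0.07). Whether the starburst and ON bipolar differences are alike in size was not tested.

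Partners of the family outside its own genes were read from lists of receptors and effectors. Of 9 tested other receptors and co-receptors, 3 were higher in ganglion than in amacrine cells and 0 were lower by limma, with a median difference of 0.91 over the list, where 15.8% of all genes were higher and 9.00% lower. Those 3 were the adhesion molecules Chl1 (4.05 ± 0.14) and L1cam (1.56 ± 0.09), which act as co-receptors of neuropilins, and Cntn2 (1.14 ± 0.11). Bipolar cells were lower than amacrine cells in L1cam (-2.76), Chl1 (-1.85) and Kdr (-1.20). Of 26 tested intracellular effectors 9 were higher and 2 lower in ganglion cells than in amacrine cells, with a median of 0.50, against the same shares of all genes. They were led by Fes (2.68 ± 0.13), a tyrosine kinase bound by plexins, and the small GTPase gene Rras (1.81 ± 0.13), with Dpysl4 (-2.91 ± 0.10) and the guanine exchange factor gene Farp2 (-1.27) lower. In starburst cells the effectors Rnd3 (1.76 ± 0.27) and Dpysl3 (1.71 ± 0.18), a collapsin response mediator gene, led 4 that were higher than in the other amacrine cells, and Rnd2 was lower (-1.42), while the co-receptor Nrcam (1.84 ± 0.16) and Kdr (1.53 ± 0.23) were higher and L1cam lower (-1.10). Over all genes 5.32% were higher and 5.61% lower in starburst cells.

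Several members have more than 1 probe set, and these did not always give the same picture. Of 83 probe sets of the 33 members 59 were tested, 17 members having at least 2. Tested singly, a choice made after the data had been seen, 25.8% of all 24604 tested probe sets passed between ganglion and amacrine cells, 10.2% between bipolar and amacrine cells and 30.1% between bipolar and ganglion cells. In the first of these, 16 of 32 members had at least 1 probe set that passed, where 37.3% of all 13996 genes did, against 10 by their brightest. Sema6a was the 1 member of 17 with probe sets that passed in opposite directions in that comparison: its second probe set was lower in ganglion cells (-2.54 ± 0.12, limma adjusted p = 2.53e-12), at 4.52 to 5.60 against 6.42 to 8.23 in amacrine cells, and over the 13 subtypes the 2 probe sets had r = -0.94. Of all 6270 genes with at least 2 tested probe sets, 207 (3.3%) were called in opposite directions between ganglion and amacrine cells and 259 (4.13%) between bipolar and ganglion cells, but 7 (0.112%) between bipolar and amacrine cells. Members opposed in the second of these comparisons were Sema6a and Plxna2.

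Plxna4, a receptor of Sema3a and class 6 semaphorins, was flat by its brightest probe set (ganglion minus amacrine 0.02) and differed by -4.02 ± 0.10 by its second. On that probe set the ganglion arrays ranged from 4.09 to 4.93 (median 4.58), the amacrine arrays from 8.23 to 8.83 and the bipolar arrays from 8.62 to 8.90, so ganglion arrays stayed near the floor and overlapped with no other. Bipolar minus ganglion was 4.21. The second probe set of Sema5b differed likewise, at -2.14 for ganglion and 1.99 for bipolar cells against amacrine cells, and was highest in MP bipolar cells. Its arrays ranged from 4.09 to 4.51 in ganglion, from 5.92 to 6.59 in amacrine and from 7.75 to 8.89 in bipolar cells, 3 ranges that did not overlap. The second probe set of Sema5a differed by -1.85 and -1.93 in these comparisons, that of Plxdc1 by 2.63 in ganglion cells, and the third of Plxdc2 by -1.83. By contrast, the Nrp1 probe sets that passed gave 1.82 and 2.45 for ganglion against amacrine cells, and the other Plxna2 probe sets -1.85, -1.27 and -1.01. In starburst cells, where 10.3% of all probe sets passed, all 4 probe sets of Nrp1, of Nrp2 and of Plxna2 passed in 1 direction for each gene, as did both of Sema7a (second 1.94 ± 0.24), while 1 of 3 tested probe sets of Plxnc1 passed. The second probe sets of Sema3a and Sema3d were dim, with means of 4.66 and 4.54 over the arrays, and gave -0.14 and 0.93 for starburst cells.

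Which probes bind which part of a transcript was not analysed here. The ratio of 3-prime to 5-prime control intensity moved with the class: for beta-actin it was 2.74 to 7.05 (median 4.27) on ganglion arrays and 3.56 to 31.9 (median 13.6) on the others, and for Gapdh 2.75 to 7.37 against 3.43 to 19.0. Of 64 control probe sets 13 did not overlap between ganglion and other arrays. The part of these differences in the opposed probe sets was not tested.

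**Figure D5:**
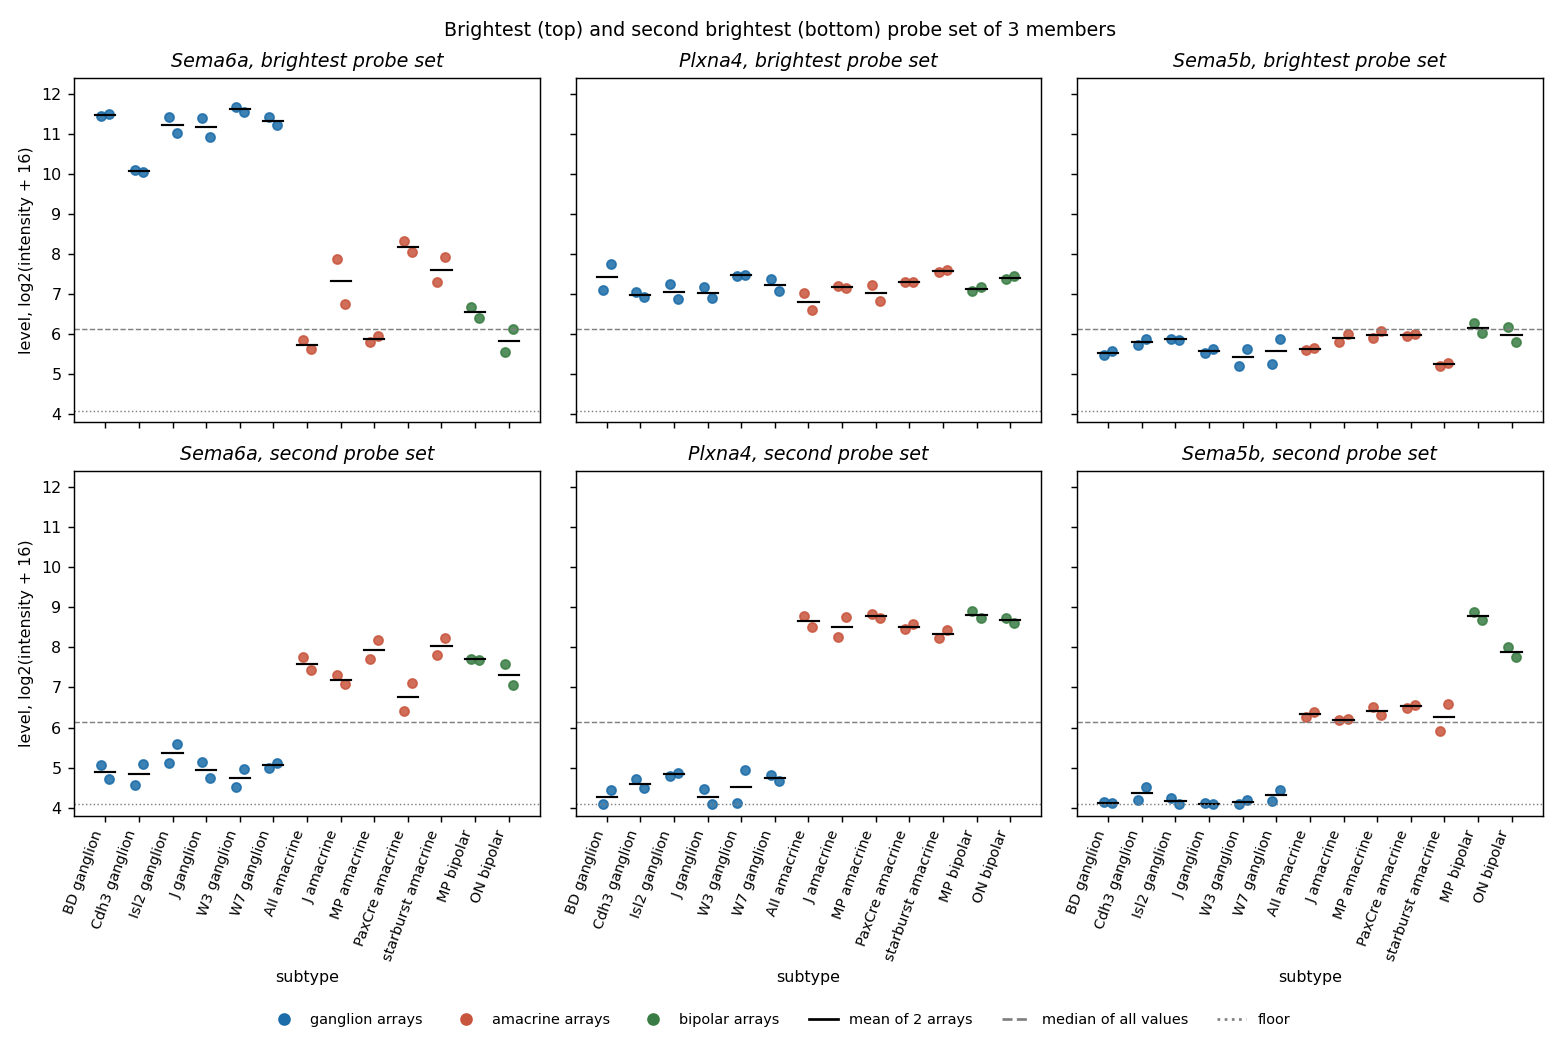
Levels on the brightest (top) and second brightest probe set (bottom) of Sema6a, Plxna4 and Sema5b, in log2(intensity + 16) for each of 26 arrays, by subtype; bars are means of 2 arrays, the dashed line is the median of all values (6.14) and the dotted line the floor (4.09). The 2 probe sets of Sema6a run in opposite directions between ganglion and other arrays (4.19 and -2.54), and those of Plxna4 are flat (0.02) and lower in ganglion cells (-4.02).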

How the data were processed

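RNA of sorted cells was extracted with a PicoPure kit after papain dissociation and amplified over 2 rounds, per the labels' protocols. The deposited values are linear intensities, 1 per probe set and array, with a floor of 1. Which software and scaling the authors applied to reach these intensities is not given in the sources used here. Of 45101 probe sets, 64 were controls, 34945 named 1 gene, 932 named several and 9160 named none. Control probe sets and those naming several genes or none were left out. Each gene was read from its brightest probe set.

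A pseudocount of 16 was added, log2 was taken and the arrays were quantile normalised, since their medians spanned 0.76 log2 units, above the limit of 0.2 set for using them as deposited. A gene was tested if it lay above the median of all values on at least 2 arrays. limma 3.58.1 in R 4.3.3 fitted 13 subtype means with 13 residual degrees of freedom, and the procedure was tested on simulated data. Errors come from replicates within subtypes, so a class difference holds for these subtypes only, and the 26 arrays limit the precision. Members and lists were chosen with earlier results of these data known. All members are accounted for and those that passed are named. Values per array, or their range over a class, are given where a difference reached 2 or a range within a class 3. Replicate numbers were not used to pair the samples in the main fit. Deviations of replicate 1 arrays correlated between subtypes at -0.228 to 0.374 (median 0.03), over 0.1 in 21 of 78 subtype pairs. Other normalisations, pseudocounts, filters, probe sets, strains, lines, blocks and left-out arrays were tried.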

Additional observations from a re-analysis of the deposited data

How the results depend on the processing

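Of 101 named differences and ranges, 95 kept their call with the columns as deposited, 94 with ganglion and other arrays quantile normalised separately, 97 with a median shift, 99 and 81 with pseudocounts of 4 and 64, and 101 without the filter or with the replicate number as a block. The block gave counts of 10, 6, 14, 5, 8, 18 and 41 members, against 10, 6, 14, 5, 7, 18 and 41: a member was gained among ganglion subtypes and no named call was lost. The second brightest probe set and the median over probe sets kept 46 each. Calls for bipolar against amacrine cells (6) numbered 3 at a pseudocount of 64, 2 with the median over probe sets and 1 with subtype means as units, and for bipolar against ganglion cells (14) 9 and 8 in the last of these settings. ON against MP bipolar cells (5) had 3 with the second probe set. Among ganglion subtypes (7) there were 2 with the second probe set, 2 with the median and 3 in C57BL/6 subtypes, and among amacrine subtypes (18) 11 with the median. Over single subtypes (41) there were 24, 25 and 27 in these settings. Ganglion against amacrine cells (10) had 16 when any probe set counted, an alternative added after seeing the data. Leaving out 1 array gave 3 (without ON bipolar replicate 1) to 6 for bipolar against amacrine cells, 5 (without Cdh3 replicate 2) to 13 (without BD replicate 1) among ganglion subtypes and 15 to 19 among amacrine subtypes; of such differences and ranges 2577 kept their call, 49 lost it and 0 reversed.

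Signs that turned came from the choice of probe set or line. The second probe set gave, for Sema6a, -2.54 in ganglion against amacrine, 2.54 in bipolar against ganglion, 0.11 in AII, 0.55 in MP and -0.92 in PaxCre cells; for Plxna2 -1.02 in bipolar against ganglion; for Sema3a 0.70 there, 0.029 in MP, -0.14 in starburst and 0.14 in W3 cells; for Sema3d -0.51 in AII, 0.044 in J, -0.57 in MP and 0.11 in PaxCre cells; and for Sema4f 0.20 in AII cells. The median over probe sets gave, for Plxnc1, -0.11 in ganglion against amacrine and 0.35 in bipolar against ganglion; for Sema6a -1.64 and 1.22; for Plxna2 -0.74 and for Sema3a 0.59 in bipolar against ganglion; and for Sema3a 0.029 in MP, -0.14 in starburst and 0.0016 in W3 cells. Within the J line Sema3d gave 0.71 for ganglion against amacrine, and within the MP line Sema3a gave 0.0078 for bipolar against amacrine cells. The cause was not tested. Without quantile normalisation the median gene differed by 0.51 between ganglion and amacrine cells and by -0.51 between bipolar and ganglion cells, where 17.3% of calls were higher in place of 37.7%. Levels near the floor of 4.09, such as Sema6b outside ganglion cells, limit how large a difference can read.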
